A study of Mus musculus with 6 samples.

Results

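The Sprouty and Spred family comprises 7 mouse genes (Spry1, Spry2, Spry3, Spry4, Spred1, Spred2 and Spred3) among the 19938 genes that single-gene probes measured here. Its members were taken by gene symbol from the annotation of the array platform, with no filter on their values. The family itself and the gene lists used below were chosen with earlier results of these data known. The members are carried by 8 probes: 1 for each gene except Spred2, which has 2. Expression had been measured on 6 Affymetrix arrays in pre-B cells of FvB/N mice transformed with BCR-ABL1, the fusion kinase of Philadelphia chromosome-positive acute lymphoblastic leukaemia. All cells were homozygous for floxed alleles of both Spry1 and Spry2, so that recombination between the loxP sites can delete these genes. The 3 control arrays, called ERT, came from cells transduced with the vector PMIP-ERT2, which carries the tamoxifen-binding domain alone, and the 3 CRE arrays from cells transduced with PMIP-CRE-ERT2, which adds the recombinase. Both groups were puromycin-resistant cells that had been exposed to 4-hydroxytamoxifen at 0.5 µM for 2 days, so the agent was common to both. The comparison therefore holds the loss of the floxed genes together with the activity of the recombinase, which cannot be told apart, and a Cre control with wild-type Sprouty genes was not analysed here. Nothing in the labels states that replicate arrays were separate cultures or mice. The p-values then reflect only how far these samples differ among themselves, a spread that may be technical.

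Sprouty proteins act inside the cell as brakes on the path from activated growth factor receptors through RAS to the ERK kinases. They are themselves made after ERK activation in many cells, and so act in a negative feedback loop, and they share a cysteine-rich domain at the carboxyl end with the Spred proteins. Spred proteins bind neurofibromin, the product of Nf1, and bring this RAS inactivator to the membrane. BCR-ABL1 feeds into the same pathway through adaptors such as GRB2 and GAB2.

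The labelled cell type was matched by its markers. All 13 measured pre-B markers lay above the 95th percentile of 1194 olfactory and vomeronasal receptor genes on every array, a set taken as genes that these cells do not transcribe, and their mean log2 level was 12.50 to 12.58 in ERT and 12.40 to 12.49 in CRE arrays. These ranges did not overlap, and 1 of the 13, the recombinase gene Rag2, was called lower in CRE in the test described below (-0.68). The same level was passed by 3 of 12 myeloid, 3 of 7 T cell, 2 of 4 erythroid and 4 of 7 stromal markers. The median of all genes tested, 7.99 to 8.07, also lay above this level (7.08 to 7.20). Most genes thus passed it, and a pass alone does not show that a cell type was present. The mean levels of the myeloid, T cell, erythroid and stromal lists overlapped between the groups. Mast cell markers, by contrast, were higher in CRE. Of 17 measured, 8 passed that level on every array and 3 rose in the test described below, and their mean log2 level was 7.29 to 7.69 in ERT and 7.82 to 8.72 in CRE. The 3 that rose were the protease genes Mcpt2, Tpsab1 and Tpsb2, where 0.797% of all genes were called higher. Mcpt2 was not among the 8. The granule protease gene Cpa3 and the IgE receptor gene Fcer1a were among the 8 but not among the 3. The 9 others were the protease genes Mcpt1, Mcpt2, Mcpt4, Cma1 and Tpsg1, the gene Ms4a2 of the IgE receptor beta chain, the transcription factor genes Gata1 and Mitf, and the prostaglandin synthase gene Hpgds. Array medians lay between 7.73 and 7.81.

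Spry1 and Spry2, the floxed genes, were the members that fell in CRE cells, and they kept 55.7% and 47.8% of their control signal. For the probe of Spry1, the log2 value was 9.04, 9.25 and 9.11 on ERT arrays 1, 2 and 3 and 8.35, 8.41 and 8.11 on CRE arrays 1, 2 and 3. The groups did not overlap: the lowest ERT array was 0.63 above the highest CRE array. The mean difference was -0.84 (95% interval -1.05 to -0.64; limma adjusted p = 0.00462 over all genes), which left 55.7% of the ERT signal (95% interval 48.5% to 64.0%). With a covariate for the mean of 16 mast cell markers, the difference was -0.76 (limma adjusted p = 0.0736), and with all 35556 probes of the table tested, unnamed ones included, the adjusted p was 0.0635, so the Spry1 call was lost in both. The mast cell covariate itself differed between the groups (mean 7.44 in ERT and 8.23 in CRE). With it the SE of the Spry1 difference was 0.148, against 0.0885 without, so the lost call there also reflects lower precision. What the mast cell markers contribute to the difference was not tested beyond this covariate, and in bulk RNA fewer cells of a type and less RNA per cell cannot be told apart.

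For Spry2, the log2 value was 8.57, 8.37 and 8.33 on ERT arrays 1, 2 and 3 and 7.29, 7.27 and 7.51 on CRE arrays 1, 2 and 3. Again every CRE array lay below every ERT array, by at least 0.82. The difference of -1.06 (95% interval -1.26 to -0.87; limma adjusted p = 0.00162) left 47.8% of the ERT signal (95% interval 41.7% to 54.9%). It had the 10th lowest p of all genes and Spry1 the 27th. The drop in Spry2 remained past the threshold with the mast cell covariate (-1.14, limma adjusted p = 0.0159). These 2 calls compare with 1.12% of all genes called lower and 0.797% called higher, 223 and 159 genes. Higher genes made up 41.6% of those calls, against 31.2% when each array was centred on its median and 52.5% when quantile normalization was repeated. Without ERT array 1 the split turned, to 188 higher and 63 lower (74.9% higher), and without both arrays numbered 1 it was 74.1% higher. In CRE, Spry2 (7.27 to 7.51) lay near the 95th percentile of the olfactory and vomeronasal receptor genes, 7.08 to 7.20. The positions of the probes within the transcripts were not analysed here. For both reasons the signal left does not measure the share of cells or alleles that escaped recombination.

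**Figure D1:**
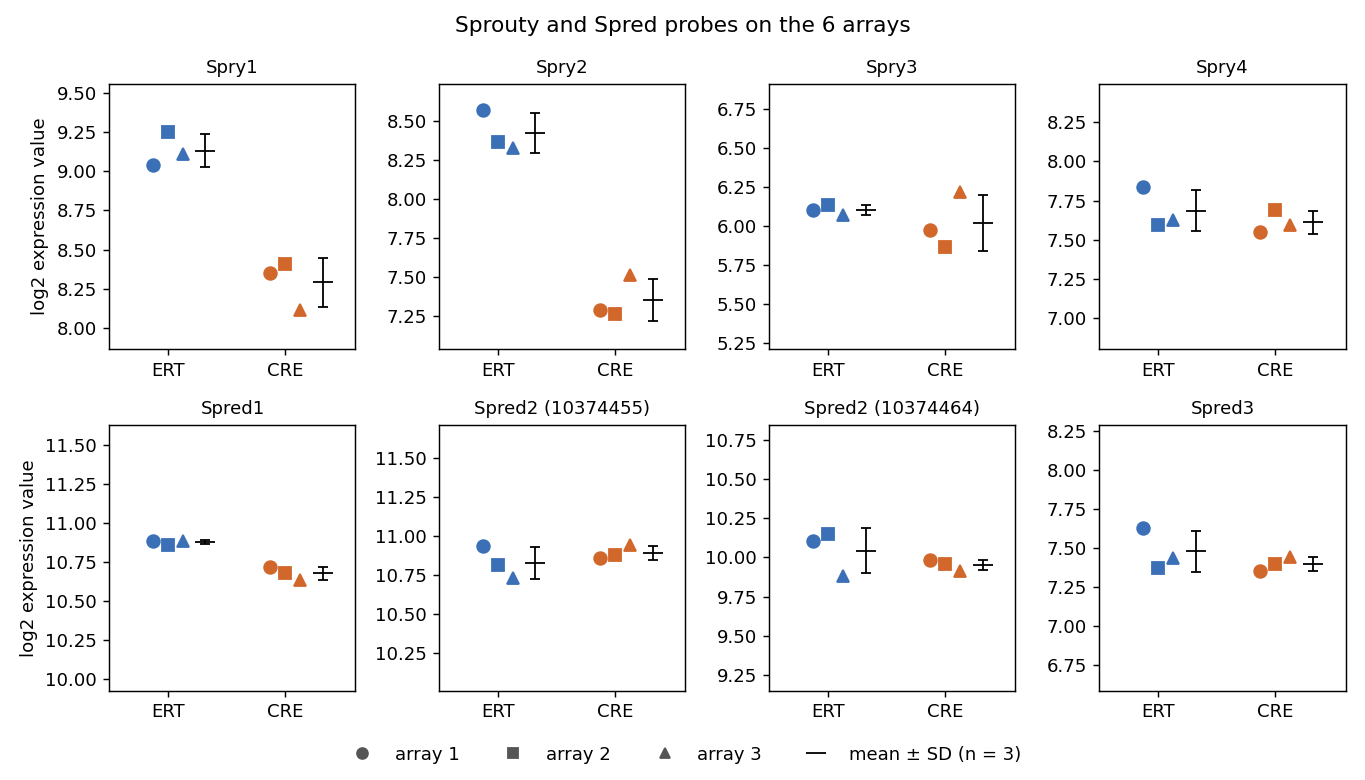
Log2 expression value of each Sprouty and Spred probe on the 3 ERT (blue) and 3 CRE (orange) arrays, with the group mean ± SD beside the points; each panel spans the same range of log2 values. The CRE points lie below all ERT points for Spry1, Spry2 and, by 0.14, Spred1, and the groups overlap for the other 5 probes.

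Whether Spry2 fell further than Spry1 could not be settled with these arrays. The log2 value of Spry2 minus that of Spry1 on the same array was -0.47, -0.88 and -0.78 in ERT and -1.06, -1.14 and -0.60 in CRE, so the groups overlapped. The means were -0.71 ± 0.21 and -0.93 ± 0.29 (SD, n = 3 each), a difference of -0.22 with a 95% interval of -0.80 to 0.36 (exact two-sided permutation p = 0.4, where 0.1 is the smallest that 3 arrays against 3 allow). CRE array 3 had the lowest Spry1 value and the highest Spry2 value of the CRE group. Without it, the difference between the changes was -0.39, and without CRE array 2 it was -0.12. No allowance was made for the nearness of Spry2 in CRE to the receptor 95th percentile.

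None of the other 5 members passed the threshold in limma, and at an unadjusted p under 0.05 there was 1 lower (Spred1) and 0 higher, where 12.8% of all genes were lower and 5.24% higher by that rule. Their median difference was -0.08, beside -0.03 over all genes, of which 63.1% had negative differences. Among the Sprouty genes that were not floxed, Spry4 encodes a further inhibitor of this class. Its log2 value was 7.84, 7.59 and 7.63 on the ERT arrays and 7.55, 7.69 and 7.59 on the CRE arrays, and the groups overlapped. The difference was -0.08 (95% interval -0.25 to 0.10), which places CRE between 84.2% and 107% of ERT, and it was 0.00040 without ERT array 1, the highest array. Spry3, the X-linked relative, read 6.10, 6.13 and 6.07 in ERT and 5.97, 5.87 and 6.22 in CRE. CRE array 3 was its highest and CRE array 2 its lowest value, so the groups overlapped.

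Spred1 differed by less than the floxed genes but with little spread. The log2 value was 10.88, 10.86 and 10.88 on the ERT arrays and 10.72, 10.68 and 10.63 on the CRE arrays, so that CRE was lower by 0.14 or more. The mean difference of -0.20 (95% interval -0.31 to -0.08) placed CRE at 87.2% of ERT, and the limma adjusted p was 0.0856. Non-overlap in this direction was found for 3 of the 7 members, beside 18.2% of all genes. Leaving out any 1 array kept the Spred1 difference between -0.22 and -0.17, with limma adjusted p from 0.111 to 0.296. It passed the threshold when dim genes were left out, with an intensity trend in the variance, or with array weights (limma adjusted p = 0.0379, 0.0436 and 0.0222).

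The 2 probes of Spred2 went in opposite directions, both within the spread. Probe 10374455 read 10.93, 10.81 and 10.73 in ERT and 10.86, 10.88 and 10.94 in CRE, a difference of 0.07 (95% interval -0.08 to 0.21). Probe 10374464 read 10.11, 10.15 and 9.88 in ERT and 9.98, 9.96 and 9.92 in CRE, a difference of -0.09 (95% interval -0.26 to 0.08). For both probes the groups overlapped, and with the mean of the probes the Spred2 difference was -0.01. Spred3, the third Spred gene, read 7.62, 7.37 and 7.43 in ERT and 7.35, 7.40 and 7.44 in CRE. Its groups overlapped, and the interval of the difference, -0.25 to 0.09, placed CRE between 84.4% and 106% of ERT. For Spry4, Spred2 (probe 10374455) and Spred3, the upper ends of these intervals lay at 107%, 116% and 106% of the ERT signal.

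**Figure D2:**
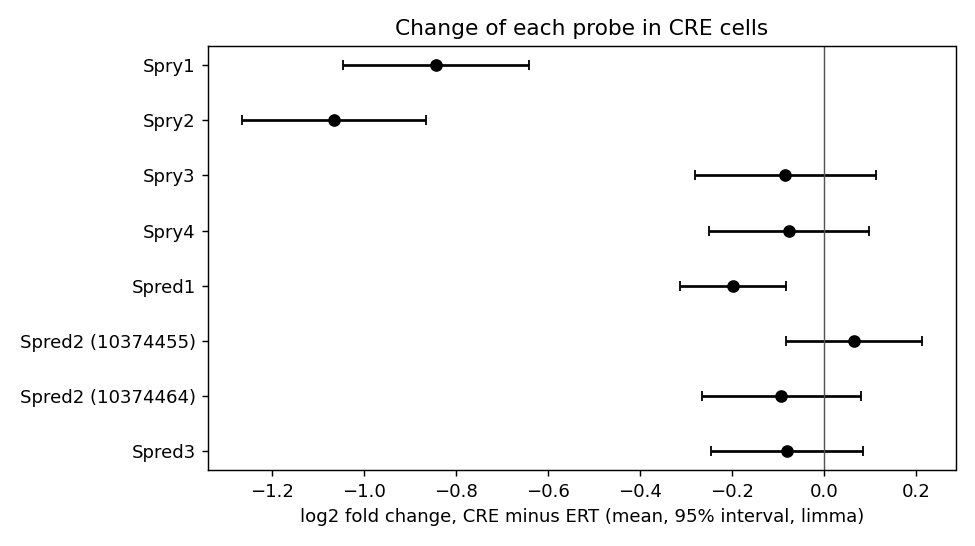
Log2 fold change, CRE minus ERT, of each of the 8 probes, with its 95% interval from limma fitted on every single-gene probe. The intervals of Spry1, Spry2 and Spred1 lie below 0, and those of the other 5 probes include it.

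The relative level of the members was read from the position of each probe among all genes of its array. Probes bind with different strength, so these positions place each member in its array and do not rank transcripts by abundance. In ERT arrays, Spred1 and Spred2 stood at percentiles 83.7 ± 0.61 and 83.2 ± 0.55 (SD, n = 3 each). Spry1 stood at 62.6 ± 1.90, Spry2 at 54.9 ± 0.77 and Spry4 at 44.3 ± 1.82 (SD, n = 3 each). Spred3 lay between 38.5 and 42.2. Spry3 stood at 14.0 ± 0.73 (SD, n = 3).

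In CRE arrays Spry1 stood at percentile 53.3 ± 1.93 and Spry2 at 37.9 ± 2.68 (SD, n = 3 each). The other members above the receptor level were at 43.0 ± 1.78 (Spry4), 38.7 ± 0.95 (Spred3), 84.5 ± 0.51 (Spred2) and 81.9 ± 0.63 (Spred1; SD, n = 3 each). The 95th percentile of the olfactory and vomeronasal receptor genes was 7.08 to 7.20 on the 6 arrays. The median of all genes tested was above it, at 7.99 to 8.07, so most genes passed this level. Of the 7 members, 6 passed it on every array, which is not particular to the family. The exception was Spry3, which lay between percentiles 65.8 and 75.6 of the receptor genes. Its signal could not be told from that of genes taken as silent, so a change in it was not measurable with this probe. Spry2 in CRE arrays lay at percentiles 96.1 to 97.6 of the receptor genes, against 99.4 to 99.6 in ERT.

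**Figure D3:**
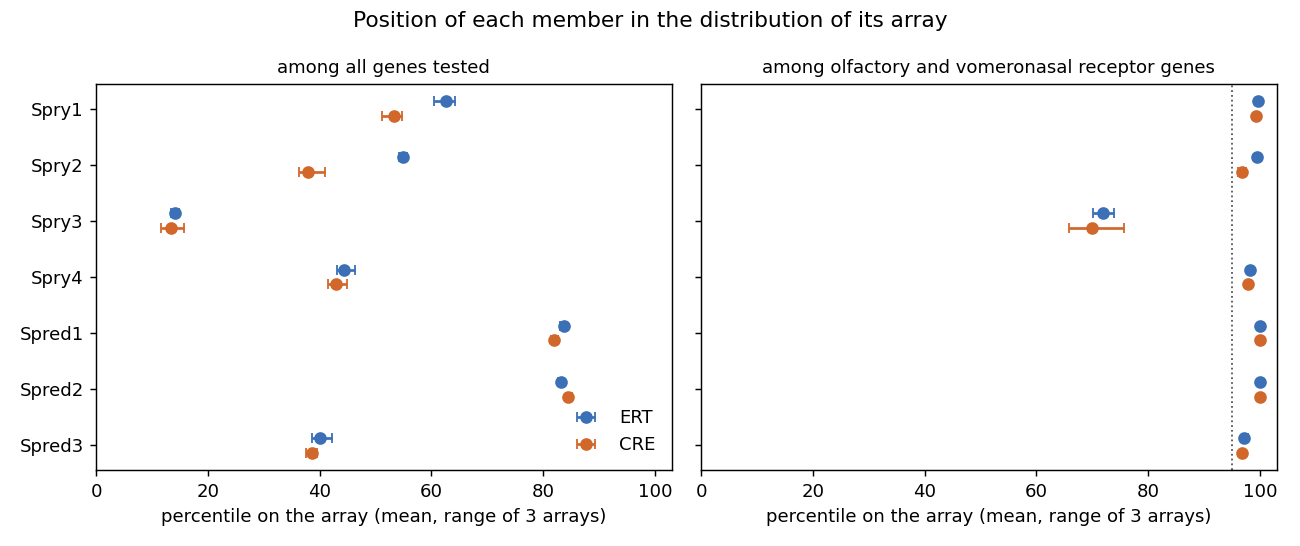
Percentile of each member among all 19938 genes (left) and among 1194 olfactory and vomeronasal receptor genes (right), with points at the mean and bars over the range of the 3 ERT (blue) or 3 CRE (orange) arrays; the dotted line marks percentile 95. Spry3 is the only member left of that line, and in the left panel Spry1 and Spry2 show the largest shifts between groups of the members.

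RefSeq promoter sequences of the GRCm38.p6 build were matched for 5 of the 7 members, and the 250 bases before the gene start are shown for Spry1, Spry2 and Spred1, the members whose groups did not overlap. The windows are chr3:37639697-37639946 (plus strand) for Spry1, chr14:105896820-105897069 (minus strand) for Spry2 and chr2:117120821-117121070 (plus strand) for Spred1, each written 5′ to 3′ in the direction of the gene. Capitals mark the GC box GGGCGG and the CCAAT box, either of them on both strands.
Spry1: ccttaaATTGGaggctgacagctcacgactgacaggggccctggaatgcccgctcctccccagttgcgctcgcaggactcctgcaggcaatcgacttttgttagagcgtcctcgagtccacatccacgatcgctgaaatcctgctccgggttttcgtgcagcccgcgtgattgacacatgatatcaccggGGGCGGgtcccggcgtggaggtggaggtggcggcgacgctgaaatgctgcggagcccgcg
Spry2: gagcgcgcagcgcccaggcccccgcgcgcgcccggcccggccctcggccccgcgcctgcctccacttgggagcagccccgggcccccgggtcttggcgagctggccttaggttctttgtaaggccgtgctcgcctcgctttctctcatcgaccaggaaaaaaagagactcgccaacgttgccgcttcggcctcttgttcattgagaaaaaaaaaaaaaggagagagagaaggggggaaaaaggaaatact
Spred1: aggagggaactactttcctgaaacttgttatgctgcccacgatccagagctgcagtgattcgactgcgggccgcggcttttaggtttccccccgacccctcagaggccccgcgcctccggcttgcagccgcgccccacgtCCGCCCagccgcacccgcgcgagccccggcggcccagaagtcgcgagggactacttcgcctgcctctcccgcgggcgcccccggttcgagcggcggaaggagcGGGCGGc

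The 3 windows had more G and C than the median window. Their G and C content stood at percentile 77.5 of all windows for Spry1 and Spry2 and 91.7 for Spred1. Whether this content goes with a change in CRE was not tested. Spry1 and Spry2 each had 62.4% G and C and 23 CpG dinucleotides, and Spred1 had 70.8% and 31, where the medians over all 32851 promoter windows of the table were 52.4% and 6. Spred2 and Spred3 were closer to these medians, with 56.0% and 12 CpG and with 55.6% and 6 CpG. The GC box was found in 4 of the 5 windows (all but that of Spry2) and in 32.7% of all windows, and the CCAAT box in Spry1 alone among the 5 and in 33.9% of all. No match was found in the 5 windows for the ETS core CCGGAA (12.0% of all windows), the TATA box TATAAA (12.4%), the cAMP response element TGACGTCA (1.55%), the AP-1 site TGANTCA (6.75%) or the E-box CACGTG (6.02%), each searched on both strands. A match is only a description of these letters, and the matches in capitals do not overlap each other.

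The genes whose course over the 6 arrays was nearest to that of a floxed gene were found by the root mean square difference in log2, after each gene's own mean was removed, among 17163 genes. For Spry1 the nearest was Maoa, which encodes a monoamine oxidase, with a difference of 0.12 and values of 9.68, 9.53 and 9.64 in ERT and 8.87, 8.90 and 8.75 in CRE. Next came the antigen receptor recombinase gene Rag2 (0.14), the glycosyltransferase gene B3gnt5 (0.15), P2ry10b (0.15) and the lens filament gene Bfsp2 (0.15). For Spry2 the nearest was Ms4a1, the gene of the B cell antigen CD20, with a difference of 0.12 and values of 8.88, 8.67 and 8.67 in ERT and 7.70, 7.69 and 7.56 in CRE. It was followed by the tetraspanin gene Tspan6 (0.14), Crhbp (0.15), P2ry10b (0.19) and Maoa (0.20). All of these genes were lower in CRE, which this measure favours. Spry1 and Spry2 differed from each other by 0.24, so that 40 genes were nearer to Spry1 than Spry2 was. In the other direction, Spry1 ranked 12th among the genes nearest to Spry2.

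Of 5 lists of genes around the family in the pathway, 4 held no gene past the threshold in the reported analysis. At an unadjusted p under 0.05, the counts below stand beside 5.24% of all genes higher and 12.8% lower. Proteins that bind or modify Sprouty and Spred proteins, such as the ubiquitin ligase Cbl and the phosphatase PP2A, were measured by 16 of 17 listed genes. In limma 0 rose and 0 fell (4 higher and 1 lower at an unadjusted p under 0.05), with a median difference of 0.02. Cbl, whose protein is held by phosphorylated Sprouty, read 11.03, 10.85 and 10.85 in ERT and 11.25, 11.19 and 11.20 in CRE. These groups did not overlap, which held in this direction for 6.59% of all genes. Its difference was 0.30 (95% interval 0.16 to 0.45; limma adjusted p = 0.0553), and it passed in 7 of 17 alternatives. Nf1, the partner of the Spreds, stood at 0.19 (95% interval 0.06 to 0.33; limma adjusted p = 0.125) and Ppp2ca, the catalytic subunit of PP2A, at -0.18 (95% interval -0.30 to -0.05; limma adjusted p = 0.133). Ppp2ca passed in 1 of the 17, with an intensity trend (limma adjusted p = 0.0173), and Nf1 in 2.

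Upstream, 17 of 18 receptor and adaptor genes were measured, and 0 rose and 0 fell in limma (3 higher and 2 lower at an unadjusted p under 0.05; median 0.02). The lowest p-values were those of the adaptor gene Gab2 (0.24, limma adjusted p = 0.0854), the receptor kinase gene Flt3 (0.35, limma adjusted p = 0.0854) and the adaptor gene Crkl (-0.15, limma adjusted p = 0.189), which passed in 5, 3 and 0 of the alternatives. Among RAS proteins, RAF and MEK kinases and their scaffolds, 17 of 22 genes were measured. Here 0 rose and 0 fell in limma (0 higher and 1 lower at an unadjusted p under 0.05; median -0.03), and all differences lay between -0.16 and 0.16. The scaffold gene Lamtor3 (-0.16, limma adjusted p = 0.207) and the RAS genes Rras2 (-0.11, limma adjusted p = 0.349) and Nras (-0.11, limma adjusted p = 0.370) had the lowest p-values.

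Inhibitors of RAS and ERK outside the family were measured by 20 of 21 genes. In limma 0 rose and 0 fell (5 higher and 1 lower at an unadjusted p under 0.05), and 15 of the 20 differences were positive, with a median of 0.08 beside -0.03 over all genes. Dusp5, which encodes a nuclear phosphatase of ERK, read 10.96, 10.75 and 10.70 in ERT and 11.18, 11.11 and 11.17 in CRE, and the groups did not overlap. Its difference was 0.35 (95% interval 0.18 to 0.51; limma adjusted p = 0.0558), and it passed in 8 of 17 alternatives. With the replicate number as a block, the limma adjusted p was 0.0405 for Cbl and 0.0348 for Dusp5, and without ERT array 1 it was 0.0270 and 0.0207. Nf1 is also in this list, and Rasal3, a RAS GTPase-activating protein gene, stood at 0.19 (95% interval 0.04 to 0.33; limma adjusted p = 0.159) and passed in 2. With array weights 3 partner genes, 2 receptor or adaptor genes and 4 inhibitor genes were called higher in limma, and 0 of the genes from RAS to MEK. Among all 19938 genes, array weights called 763 higher, beside 159 in the reported analysis.

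Downstream, 6 of 19 genes that are transcribed after ERK activation rose and 0 fell, with a median difference of 0.27, beside 0.797% of all genes called higher. The 6 were the AP-1 subunit genes Fosb (1.55), Fos (0.48) and Junb (0.43), the zinc finger factor genes Egr1 (0.87) and Egr2 (0.48), and the stress response gene Ier3 (0.57), with limma adjusted p from 6.44e-04 to 0.0369. Egr1 read 8.78, 8.68 and 8.68 in ERT and 9.59, 9.59 and 9.56 in CRE. In ERT, Fos (7.28 to 7.31) and Ier3 (7.09 to 7.33) lay near the receptor 95th percentile of 7.08 to 7.20. The 13 other genes did not pass. Of the 19 differences 16 were positive and 3 negative, those of Myc (-0.17), Etv4 (-0.05) and Etv5 (-0.02). The smallest positive one was that of the ERK phosphatase gene Dusp6 (0.0088, limma adjusted p = 0.962). Dusp4, Dusp5 and Dusp6 are also in the list of inhibitors. With the mast cell covariate 2 of the 19 genes, Fosb and Egr1, were higher and the list median was 0.22. Fos (0.46), Egr2 (0.54), Ier3 (0.41) and Junb (0.33) lost their call (limma adjusted p = 0.0903, 0.103, 0.243 and 0.397). With every probe of the table tested there were also 2, and without CRE array 3 or ERT array 3 there were 3. Over all genes these 4 settings called 60, 13 (of 35556 probes), 31 and 32 higher, beside 159 in the reported analysis. There were 8 with dim genes left out or with the replicate block, 9 with centred arrays, repeated quantile normalization or an intensity trend, and 10 with array weights. These 6 settings called more of all genes higher as well: 364 (of 11963 genes), 296, 314, 369, 366 and 763, in that order. This list was drawn up with earlier results of these data known, and its count is a description.

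**Figure D4:**
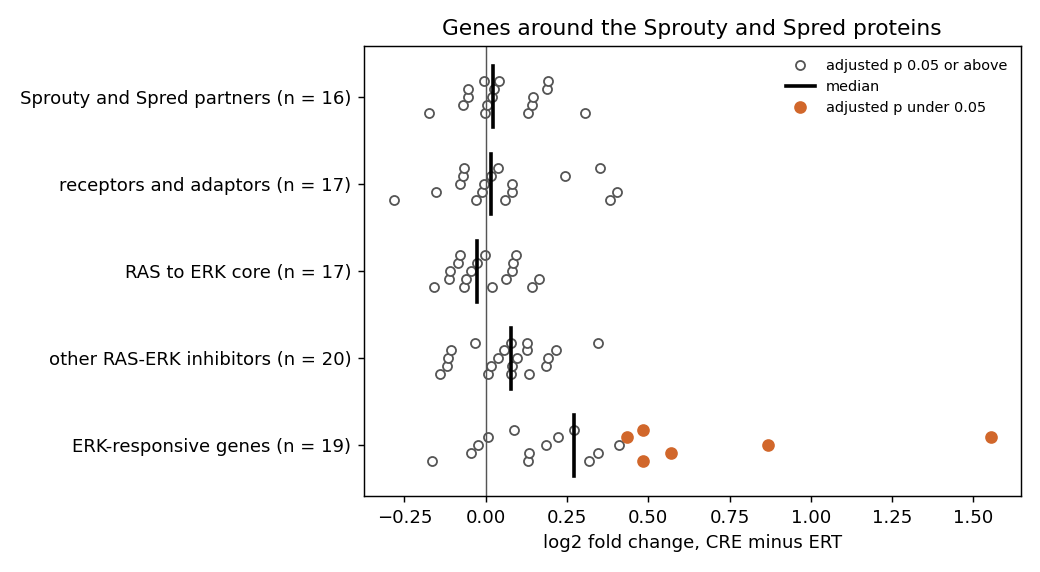
Log2 fold change, CRE minus ERT, of each measured gene of the 5 lists (points), with the list median as a black bar and genes past an adjusted p of 0.05 filled. Filled points are seen only among the ERK-responsive genes, where 6 of 19 rose.

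In exact two-sided permutation tests over the 6 arrays, p was 0.1, the smallest possible, for Spry1, Spry2 and Spred1, and 0.4 to 0.6 for the other 4 members. Across 17 alternative analyses the change of Spry2 stayed between -1.14 and -0.96 and passed the threshold in 17, and that of Spry1 stayed between -0.97 and -0.75 and passed in 15. Spred1 stayed between -0.23 and -0.15 and passed in 3. Spry4, Spred2 and Spred3 took either sign, and these 3 and Spry3 passed in 0 of the alternatives in limma.

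**Figure D5:**
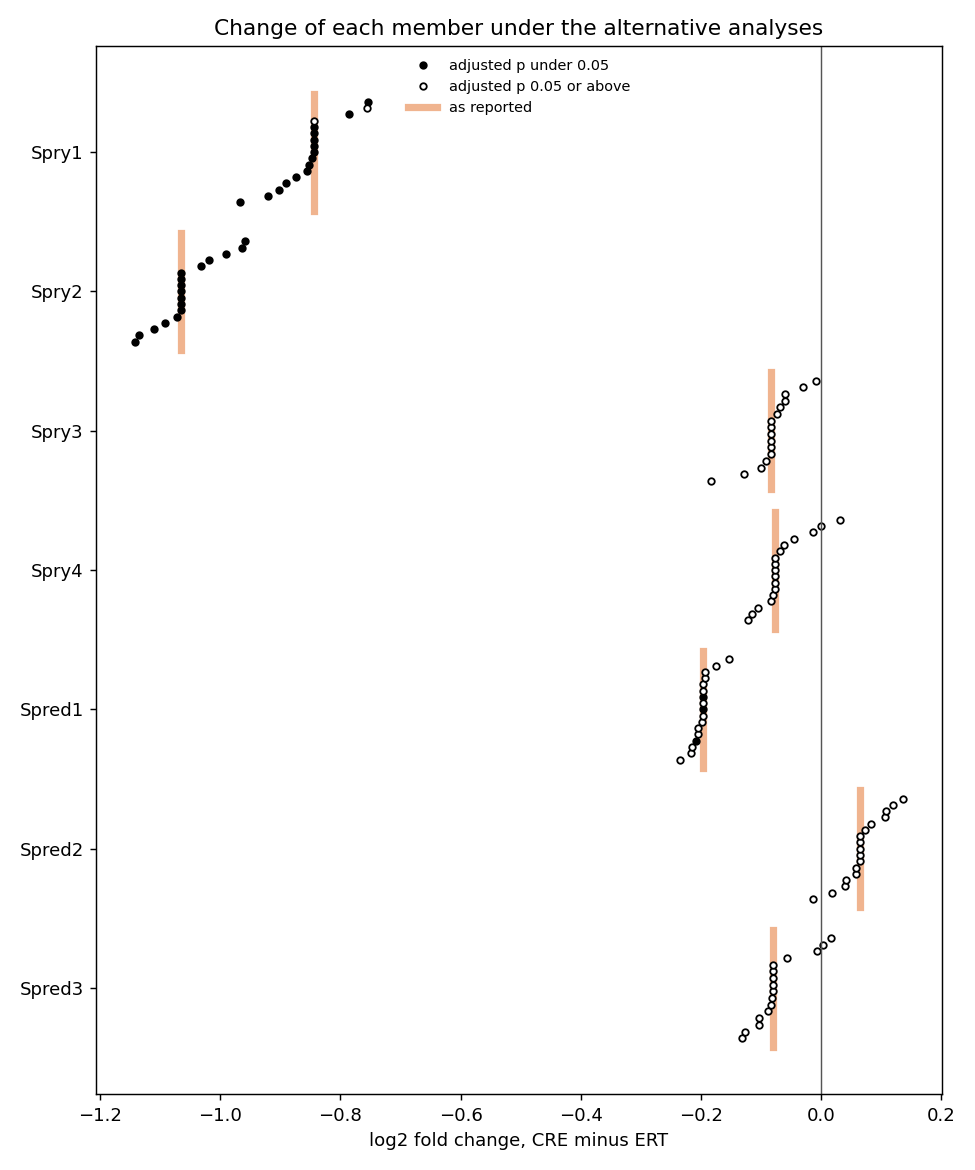
Log2 fold change, CRE minus ERT, of each member under the alternative analyses (points; filled where the adjusted p was under 0.05), with the reported value as an orange bar; points are spread vertically by rank. The points of Spry1 and Spry2 lie left of -0.75, and those of Spry4, Spred2 and Spred3 fall on both sides of 0.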

How the data were processed

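Gene expression was analysed from the deposited table of 35556 probes on 6 arrays, 3 per group, whose values are log2 expression values between 2.47 and 14.81. Per the submitters' processing notes, the tools were RMA and Partek 6.5, with no role stated. How the background was corrected, which probes were filtered and which genome build served is not given in the sources used here. Precision is limited by the number of arrays (median SE of a log2 difference 0.0656).

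The platform annotation gives 1 gene for 21789 probes, several for 1621 and none for 12146; only the first were used. For 999 genes with several probes, the one with the highest mean was kept, which left 19938 genes. CRE was set against ERT in limma 3.58.1 (lmFit, eBayes; R 4.3.3), with p-values adjusted by Benjamini-Hochberg across these genes and called under 0.05, and in parallel on every single-gene probe. Exact two-sided permutation tests used scipy 1.17.1. The fit was tested on simulated data. Genes named were the 7 members, the 3 lowest p-values of each pathway list with any gene past the threshold, and the 5 nearest profiles of Spry1 and Spry2 without predicted, clone, small RNA and receptor genes. Some cell type markers, the ERK-responsive genes with negative differences, Dusp4 and Dusp6 were named as well. The members and lists were chosen with earlier results of these data known. List genes without a single-gene probe were not analysed here.

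The alternatives left out dim genes (under the 40th percentile), averaged or tested all probes, rescaled the arrays, changed the variance model or array weights, added a replicate block or a mast cell covariate, or left out arrays. Testing every probe of the table was added after seeing the data.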

Additional observations from a re-analysis of the deposited data

How the results depend on the processing

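Spry1 fell short of the threshold with the mast cell covariate (-0.76) and with every probe of the table tested (-0.84), which left 1 member past the threshold in each. Spred1 passed with dim genes left out (-0.20), an intensity trend (-0.20) and array weights (-0.21). Differences that took the other sign were Spred2 with the mean of its probes (-0.013), Spred3 with array weights (0.0039) and without both arrays numbered 1 (0.017), and Spry4 in the latter (0.031); none of these passed. Without 1 array each, the difference was -0.90 to -0.75 for Spry1, -1.14 to -0.99 for Spry2, and -0.12 to 0.00040 for Spry4, turning without ERT array 1. Spry3 and Spred3 were not tested once dim genes were left out. Among all probes of the table the ERT percentiles were 67.4 (Spry1), 59.5 (Spry2), 19.2 (Spry3), 48.6 (Spry4), 84.5 (Spred1), 84.1 (Spred2) and 44.6 (Spred3).

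The 382 calls over all genes became 1155 without dim genes, 1006 with centred arrays, 703 after repeated quantile normalization, 1187 with an intensity trend, 1845 with array weights, 98 with the mast cell covariate, 21 with every probe of the table and 166 without both arrays numbered 1. They were 251, 70 and 55 without ERT array 1, 2 or 3 and 101, 207 and 49 without CRE array 1, 2 or 3. With the replicate number as a block there were 581, the Spry1 and Spry2 differences stayed at -0.84 and -1.06 (limma adjusted p = 0.000514 and 0.000357), and the call of no member changed, while Cbl (0.30) and Dusp5 (0.35) then passed. Deviations of same-numbered arrays correlated at 0.27, 0.34 and 0.03. ERT arrays 1 and 2 were closest to their own numbers. ERT array 3 was about as close to CRE array 1 (0.030) as to CRE array 3 (0.028). Whether same-numbered arrays were paired cannot be told from these values, and the labels give only a number.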
